A study of Mus musculus with 24 samples.

Results

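Astrocytes with the ER stress kinase Perk deleted were treated with tunicamycin (TM), and the response of all their genes was measured by RNA sequencing in 3 TM-treated and 3 control libraries, 6 of the 24 libraries of the series.

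TM blocks N-linked glycosylation, so that unfolded glycoproteins accumulate in the ER lumen. Primary cultures came from mice with a loxP-flanked Perk gene (PerkloxP/loxP), and TM-treated and control Perk KO cells alike had received lentivirus with active Cre recombinase in vitro. WT cells, also PerkloxP/loxP, had received an inactive Cre (ΔCre). At day in vitro 14, treated cultures were given TM at 5 µg/mL over 24 hours and control cultures DMSO, per the labels' protocols. The series' design text gives 20 to 24 hours instead, and which time each library had was not stated. The knockout is therefore a mixed population of transduced cells and not a clone.

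Beside these 6 libraries, 3 of TM-treated and 3 of control WT astrocytes and 3 of TM-treated and 3 of control Perk KO neurons were used for comparison. The titles call the 3 libraries of a group biological replicates. They do not say whether each is its own culture or animal, so a p-value covers how far these libraries differ, and that difference may be technical.

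Perk is encoded by Eif2ak3 (ENSMUSG00000031668, chromosome 6, positions 70844515 to 70905245, plus strand of GRCm38). Eif2ak3 had 11.3, 15.7 and 13.8 CPM in TM-treated Perk KO astrocytes, against 5.97, 7.62 and 6.76 CPM in control Perk KO astrocytes, and 105, 86.6 and 74.7 CPM in TM-treated WT astrocytes, against 25.4, 28.4 and 25.4 CPM in control WT astrocytes. CPM is the count of a gene relative to the library total, after TMM scaling over the 12 astrocyte libraries. Every Perk KO library lay below every WT library, and 15.3% (with TM) and 25.7% (controls) of the mean WT level was left. Perk KO minus WT on the log2 scale was -2.66 ± 0.17 (SE, adjusted p = 8.58e-06) with TM and -1.94 ± 0.14 (adjusted p = 0.00261) in controls, by edgeR's quasi-likelihood test as for all adjusted p-values here. What was left still rose with TM in Perk KO astrocytes (log2 fold change 1.00 ± 0.18, adjusted p = 0.00702). Below, a value with ± in parentheses after a gene is its log2 fold change of TM over control with its SE. Counts are per gene and include any exons outside the deleted part.

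The 6 libraries held 17161558 to 18241265 counts each. Mitochondrially encoded genes took 2.78%, 2.49% and 1.98% of the counts with TM, against 1.65%, 1.66% and 1.91% in controls, ranges that did not overlap, and the part of this shift in the results was not tested. Among astrocyte markers Aldh1l1 had 344, 314 and 363 CPM with TM, against 331, 336 and 429 CPM in controls. Aqp4 had 873, 637 and 517 CPM with TM, against 913, 796 and 545 CPM in controls. Both were present in every library at like levels, while S100b was low, at 2.17, 1.4 and 2.34 CPM with TM, against 3.96, 3.15 and 2.78 CPM in controls. Among neuronal markers, Slc17a6 was at 0 in all 6 libraries. The 15 markers summed to 338.4 to 379.6 CPM with TM, against 350.3 to 377.1 CPM in controls. Rbfox3, Snap25, Nefl, Nefh, Slc17a7, Gad2 and Dcx were each at most 1.01 CPM, so the sum came from the other markers.

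The unfolded protein response has 3 branches, each with its own sensor in the ER membrane. Perk phosphorylates the translation factor eIF2, which lowers protein synthesis and favours translation of the transcription factor Atf4. Ire1, encoded by Ern1, splices the mRNA of Xbp1, and Atf6 is cut by Golgi proteases to release a transcription factor. Xbp1 and Atf6 together raise chaperones, folding enzymes and degradation factors of the ER. Atf4 and its target Ddit3 (CHOP) raise amino acid supply and stress feedback genes, and other eIF2 kinases (Eif2ak1, Eif2ak2 and Eif2ak4) can feed into Atf4 as well.

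TM raised 841 of 15164 tested genes in Perk KO astrocytes and lowered 698, at an adjusted p under 0.05, which is 5.55% and 4.6% of the genes tested. Of these, 243 rose and 245 fell by more than 2-fold, and the median log2 fold change of all genes was -0.004. The 1539 genes called had no overlap between their TM-treated and control libraries, a property that 28.0% of all genes tested had. The largest rises were those of Derl3 (4.53 on the log2 scale), which retrotranslocates misfolded proteins, and Sdf2l1 (3.81), a partner of the chaperone BiP. They were followed by the chemokine Ccl3 (3.74), the sugar transporter Slc2a6 (3.21), the BiP cochaperone Dnajb9 (2.97) and the matrix metalloproteinase Mmp3 (2.90). The largest falls in this ranking were those of the interferon-induced Oas2 (-3.85), the transcriptional inhibitor Id3 (-3.77), the astrocyte filament gene Gfap (-3.57) and the matrix gene Fbln2 (-3.07).

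Same-numbered TM-treated and control libraries deviated together. A fit with the replicate number as a block called 2190 genes higher and 2098 lower, among them all 1539. The same 15164 genes were tested, so list counts with the block stand beside these larger shares and not beside 5.55% and 4.6%. Without TM library 2 the fit without a block called 459 genes higher and 348 lower, and without control library 2 it called 496 and 394. All fits here that leave out a library were without the block. A call lost in them therefore does not tell whether it would be lost with the block. In RNA from whole cultures, fewer cells of a type and less RNA per cell cannot be told apart.

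**Figure D1:**
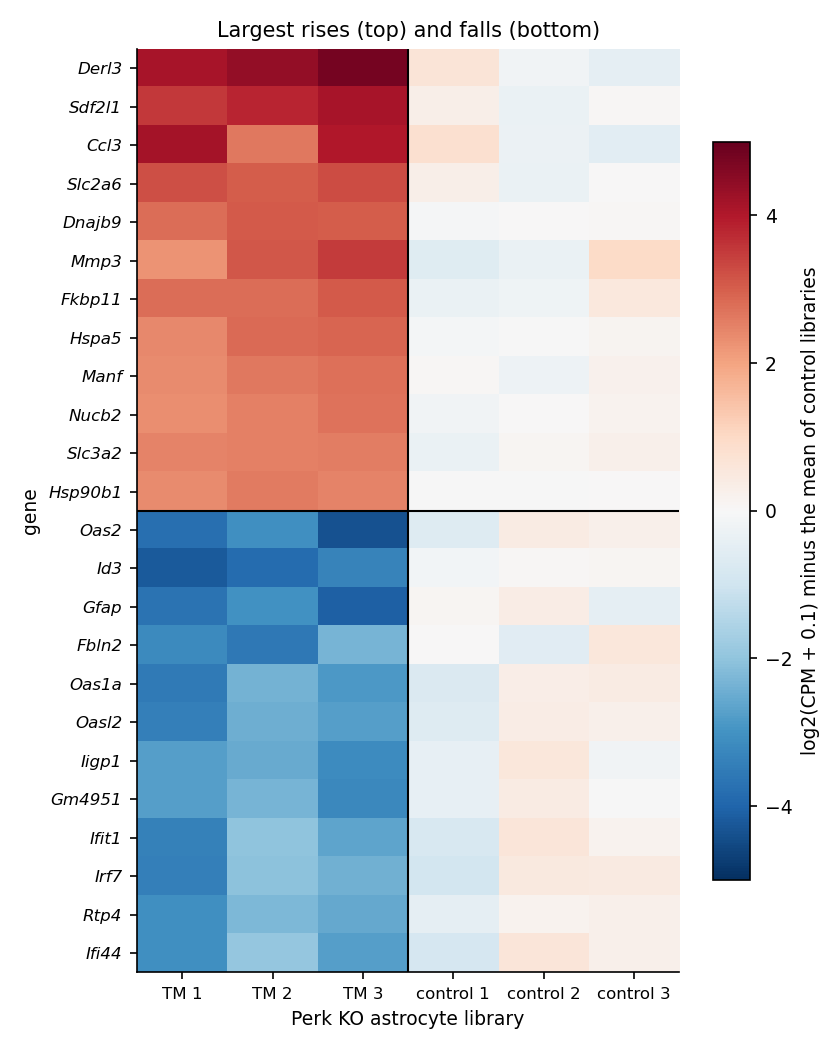
The 12 largest rises (top) and 12 largest falls (bottom) of the named genes, as a heat map of log2(CPM + 0.1) minus the mean of the control libraries, with the 3 TM-treated and 3 control libraries of Perk KO astrocytes as columns. All TM-treated libraries are red for the rises and blue for the falls, and TM library 2 is paler than the other two for Ccl3.

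Of the genes of the sensors and eIF2 kinases, 6 of 14 tested rose and 1 fell. Xbp1, the substrate of Ire1, had 141, 186 and 199.7 CPM in TM-treated Perk KO astrocytes, against 42.2, 47.3 and 52.2 CPM in control Perk KO astrocytes (1.89 ± 0.14, adjusted p = 7.10e-05). Atf6 had 123, 155 and 148 CPM with TM, against 80.4, 82.6 and 71.8 CPM in controls (0.85 ± 0.11, adjusted p = 0.00153). Its relative Creb3l2 had 109, 121 and 143 CPM with TM, against 72.6, 67 and 59.6 CPM in controls (0.90 ± 0.12, adjusted p = 0.00179). In all 3 genes the lowest TM-treated library lay above the highest control. Ern1 did not pass the test (0.13 ± 0.14, adjusted p = 0.644). The member that fell was Eif2ak2 (PKR), a kinase induced by interferon that senses double-stranded RNA, with 90.6, 93.8 and 60.5 CPM with TM, against 169, 236 and 182 CPM in controls (-1.26 ± 0.19, adjusted p = 0.00314). The other eIF2 kinases had log2 fold changes of 0.07 ± 0.09 (Eif2ak1) and 0.03 ± 0.13 (Eif2ak4), and neither passed the test.

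Genes of ER protein folding, import, glycosylation, export and degradation rose widely. Over 6 such lists, 125 of 192 tested genes rose and 1 fell, where 5.55% of all genes rose, and the median log2 fold change was 0.64. Among ER chaperones and cochaperones 23 of 29 rose and none fell, with a median of 1.025. Hspa5 (BiP), the main Hsp70 chaperone of the ER, had 4946, 6606 and 7037 CPM in TM-treated Perk KO astrocytes, against 864, 929.8 and 1023 CPM in control Perk KO astrocytes (2.72 ± 0.15, adjusted p = 1.36e-05). Hsp90b1 (Grp94) had 3068, 3612 and 3367 CPM with TM, against 599.6, 591 and 618 CPM in controls (2.47 ± 0.10, adjusted p = 7.67e-06). Sdf2l1 had 218, 266 and 326 CPM with TM, against 23.1, 14.9 and 19.5 CPM in controls (3.81 ± 0.20, adjusted p = 1.36e-05). The lowest TM-treated library exceeded the highest control by several fold in each, and for Hspa5 library 1 was the lowest of both groups. Dnajb9 had 455, 549 and 534 CPM with TM, against 62, 66 and 68.2 CPM in controls (2.97 ± 0.11, adjusted p = 5.96e-06). The lectin chaperone Calr rose by 1.75 ± 0.12 on the log2 scale. Members that did not pass the test included Fkbp9, Cdnf, Dnajc10 and Sdf2, with log2 fold changes of -0.04, -0.26, 0.11 and 0.23; these were picked after their values were seen, and the adjusted p of Sdf2 was 0.0163 with the replicate number as a block.

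**Figure D2:**
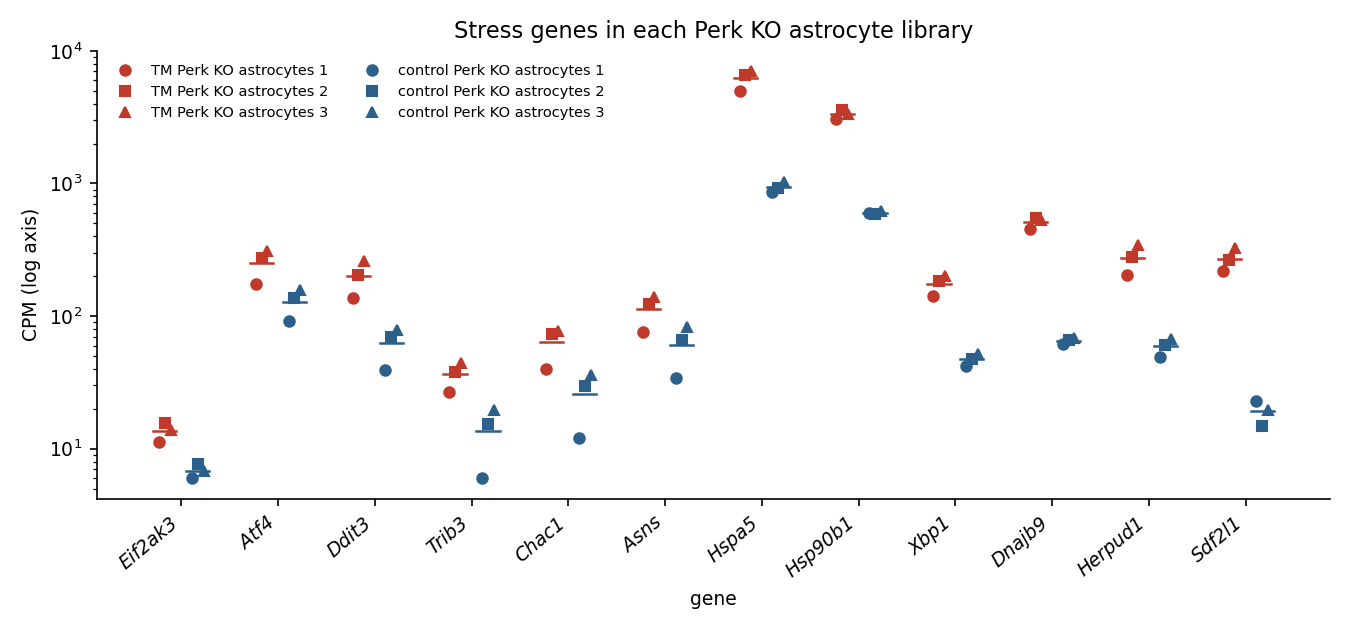
CPM on a log axis of 12 stress genes in each library of TM-treated (red) and control (blue) Perk KO astrocytes, with a symbol for each library number and a bar at the group mean. Hspa5 lies between 4946 and 7037 CPM with TM, above the 864 to 1023 CPM of the controls, and in Asns the groups overlap.

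The ER stress element (ERSE) is the motif through which Atf6 and Xbp1, with the CCAAT-binding factor NF-Y, act on chaperone promoters. The letters CCAAT, 9 bases of any kind and CCACG were searched on both strands from 250 bases before to 50 after RefSeq transcription starts (GRCm38.p6), which 10895 of 15155 symbols of tested genes had. They were found in 19 genes, 0.174% of those with a promoter, in 12 of 648 genes that rose (1.85%) and in 1 of 504 that fell (0.198%). Among the ER chaperones 6 of 25 had a match (24.0%). The shorter ERSE-II (ATTGG, 1 base, CCACG) was in 9 genes, of which 5 rose. A match is a description and not a binding site that was tested. The promoters of 4 genes of this group show the motif, here with the match in capitals: Hspa5 at chr2:34771940-34772089 (plus strand), Hsp90b1 at chr10:86705445-86705666 (minus strand) with matches on both strands, Pdia6 at chr12:17266439-17266588 (plus strand) and, with an ERSE-II, Herpud1 at chr8:94386279-94386428 (plus strand). The matches begin 65 bases (Hspa5), 212 and 107 (Hsp90b1), 98 (Pdia6) and 52 (Herpud1) before the start.
Hspa5: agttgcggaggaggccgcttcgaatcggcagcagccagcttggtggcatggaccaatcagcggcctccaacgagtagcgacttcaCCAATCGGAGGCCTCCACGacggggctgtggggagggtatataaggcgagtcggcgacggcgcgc
Hsp90b1: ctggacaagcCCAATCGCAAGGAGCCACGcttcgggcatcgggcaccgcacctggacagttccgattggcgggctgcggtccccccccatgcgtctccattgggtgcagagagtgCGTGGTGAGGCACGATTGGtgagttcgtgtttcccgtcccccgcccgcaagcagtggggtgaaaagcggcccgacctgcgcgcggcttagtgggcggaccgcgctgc
Pdia6: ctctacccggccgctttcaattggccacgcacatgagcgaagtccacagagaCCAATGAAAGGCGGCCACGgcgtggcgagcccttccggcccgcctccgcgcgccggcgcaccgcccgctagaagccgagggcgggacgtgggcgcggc
Herpud1: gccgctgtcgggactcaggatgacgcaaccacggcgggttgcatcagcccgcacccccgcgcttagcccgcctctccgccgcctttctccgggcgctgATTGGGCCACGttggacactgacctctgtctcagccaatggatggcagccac

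Protein disulfide isomerases and ER oxidases, which form and rearrange disulfide bonds, followed, with 13 of 17 higher, none lower and a median of 0.858. Pdia6, whose promoter is shown, had 1074, 1163 and 1285 CPM with TM, against 289, 267 and 298 CPM in controls (2.04 ± 0.10, adjusted p = 1.36e-05), and P4hb (PDI itself) had 1262, 1285 and 1303 CPM with TM, against 394, 382 and 424 CPM in controls (1.68 ± 0.09, adjusted p = 1.36e-05). The oxidase gene Ero1lb had 41, 44 and 48.1 CPM with TM, against 9.72, 11.3 and 9.6 CPM in controls (2.12 ± 0.12, adjusted p = 1.73e-05). All 9 TM-treated values of these 3 genes stood above all of their controls, with a spread of the libraries far below the change.

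Of the translocon, signal peptidase and signal recognition genes, 22 of 33 rose and none fell (median 0.655). Sec61a1, the channel subunit through which proteins enter the ER, had 399.6, 404 and 401 CPM with TM, against 130.3, 125 and 122 CPM in controls (1.67 ± 0.08, adjusted p = 1.36e-05), nearly the same value in each library of a group. The signal peptidase gene Spcs2 had 602, 545 and 524 CPM with TM, against 164, 146 and 146 CPM in controls (1.87 ± 0.10, adjusted p = 1.36e-05).

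TM inhibits Dpagt1, the first enzyme of dolichol-linked glycan assembly. Of 35 tested genes of N-glycan synthesis and transfer, 20 rose and 1 fell (median 0.534). Dpagt1 itself rose (named outside the rule for named genes), with 49.9, 54.6 and 65.5 CPM with TM, against 26.2, 23 and 27 CPM in controls (1.15 ± 0.12, adjusted p = 0.000525). The oligosaccharyltransferase subunit Magt1 had 194, 187 and 187 CPM with TM, against 59.4, 54.6 and 57.3 CPM in controls (1.72 ± 0.08, adjusted p = 1.36e-05). The mannosyltransferase Alg2 had 236, 230.2 and 246 CPM with TM, against 77.8, 65.8 and 72.3 CPM in controls (1.72 ± 0.09, adjusted p = 1.36e-05). The libraries of the 2 groups were well apart in these 3 genes. The member that fell, Mfsd2a, is a lipid transporter of the cell surface, with 37.8, 55.5 and 77.7 CPM with TM, against 102, 99.6 and 144 CPM in controls (-1.02 ± 0.24, adjusted p = 0.028). Mfsd2a lost the call without TM library 2 or control library 2 or 3 (adjusted p up to 0.11).

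The hexosamine pathway makes UDP-GlcNAc, the sugar donor of that first step, and 3 of 8 tested genes rose and none fell. They were its rate-limiting enzyme Gfpt1, with 202, 214 and 186 CPM with TM, against 109, 96.9 and 87 CPM in controls (1.04 ± 0.11, adjusted p = 0.00046), and the later enzymes Pgm3 (1.38 ± 0.15, adjusted p = 0.000525) and Uap1 (0.60 ± 0.10, adjusted p = 0.00528).

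Transport between ER and Golgi counted 32 of 49 genes higher and none lower (median 0.542). The cargo receptor gene Tmed2 had 386, 394 and 377 CPM with TM, against 171, 167 and 176 CPM in controls (1.17 ± 0.08, adjusted p = 5.10e-05). Surf4, another cargo receptor gene, had 494, 542 and 579.8 CPM with TM, against 218, 207 and 228 CPM in controls (1.30 ± 0.09, adjusted p = 5.59e-05). Each TM-treated library of both was above every control. Of ER-associated degradation, 18 of 32 genes rose and none fell (median 0.513). Derl3 had 13.9, 16.8 and 21.8 CPM with TM, against 1.14, 0.608 and 0.491 CPM in controls (4.53 ± 0.31, adjusted p = 4.44e-05). Herpud1, which assembles the ubiquitin ligase complex of the ER membrane, had 205, 278 and 342 CPM with TM, against 49, 60.8 and 67.3 CPM in controls (2.21 ± 0.19, adjusted p = 0.000144). Derl3 was low in every control library and well above that in every TM-treated one. The selenoprotein Selenos rose by 2.10 ± 0.09 and the mannosidase-like Edem1 by 1.39 ± 0.11 on the log2 scale.

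The proteasome, which degrades what the ER exports, went the other way. All 36 tested subunit genes had a log2 fold change below 0 (median -0.248). Of these 6 fell at an adjusted p under 0.05, where 4.6% of all genes fell. In the fit with the replicate block 26 fell, beside 2098 of 15164 genes. Psma5 had 64.8, 58.4 and 59.3 CPM with TM, against 82.5, 79.6 and 86.4 CPM in controls (-0.45 ± 0.09, adjusted p = 0.0126). Over the list 1, 0 and 2 genes were called without TM library 1, 2 and 3, and 8, 2 and 1 without control library 1, 2 and 3. Psma5 lost the call without TM library 2 (adjusted p up to 0.082).

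**Figure D3:**
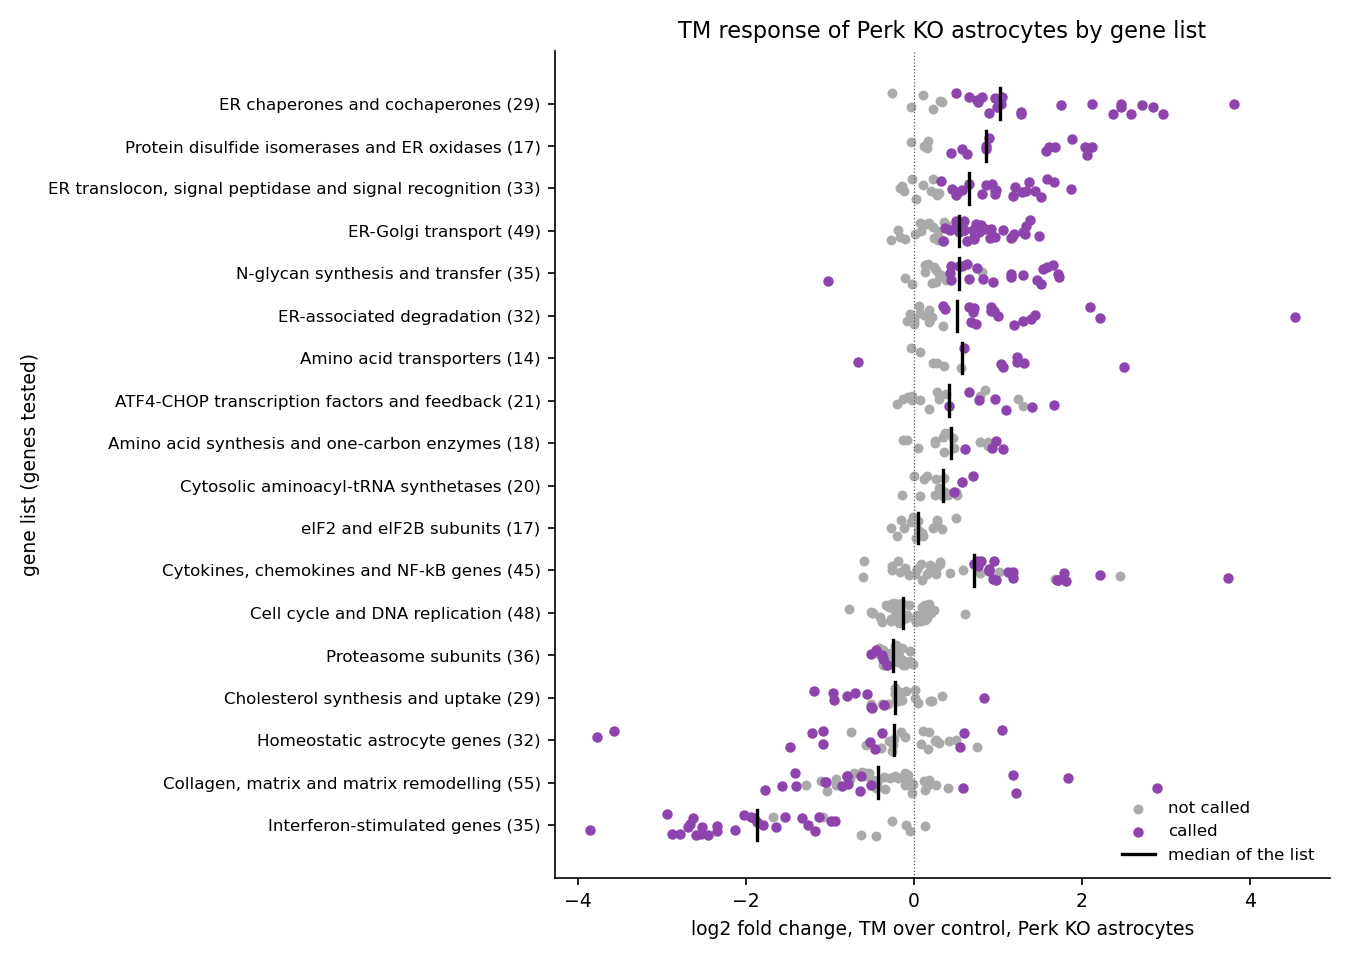
Log2 fold change of TM over control in Perk KO astrocytes for every tested member of 18 gene lists, 1 point per gene, purple where called at an adjusted p under 0.05 and grey where not, with a bar at the list median. The 6 ER lists lie mostly above 0 and the interferon-stimulated genes mostly below it, with a median of -1.871.

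The Atf4 and CHOP branch, which Perk drives through eIF2, also moved in these cells. Of 21 tested transcription factors and feedback genes 7 rose and none fell, with a median log2 fold change of 0.416. Ddit3 (CHOP), a factor of late ER stress, had 137, 204 and 259.7 CPM in TM-treated Perk KO astrocytes, against 39.4, 69.8 and 78.8 CPM in control Perk KO astrocytes (1.67 ± 0.28, adjusted p = 0.00536). Atf4 had 174, 273 and 307 CPM with TM, against 92, 137 and 156 CPM in controls (0.97 ± 0.23, adjusted p = 0.0302). Its target Trib3, a pseudokinase, had 26.6, 38.1 and 44.4 CPM with TM, against 5.97, 15.3 and 19.5 CPM in controls (1.41 ± 0.36, adjusted p = 0.0389). In each of these genes library 1 was the lowest of its group with TM and in controls, and no TM-treated library fell within the control range. Atf4 lost the call without TM library 2 or 3 or control library 1 or 2 (adjusted p up to 0.109). Trib3 lost the call without TM library 2 or 3 or control library 2 (adjusted p up to 0.117).

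Chac1, a glutathione-degrading enzyme, had 40.1, 73.7 and 77.3 CPM with TM, against 12.1, 29.9 and 35.7 CPM in controls (1.29 ± 0.37, adjusted p = 0.0577). Asns, which makes asparagine, had 76.2, 123 and 139 CPM with TM, against 34.4, 65.5 and 82.7 CPM in controls (0.89 ± 0.30, adjusted p = 0.111). Neither passed the test, and in Asns the lowest TM-treated library lay below the highest control. With the replicate number as a block, the adjusted p was 2.60e-07 for Chac1 and 9.42e-07 for Asns. In that fit 14 of the 21 list members rose and 1 fell.

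The number called in this list moved with single libraries. It was 1 without TM library 2, 2 without TM library 3 or control library 2, 3 without control library 1 and 11 without TM library 1. The list median moved less, from 0.33 to 0.52 over all fits that leave out 1 library. Ddit3 kept an adjusted p of at most 0.0246 in each of these fits. Members outside the rule for named genes that stayed near 0 were Ppp1r15b (-0.02 ± 0.10), the second eIF2 phosphatase subunit, and Nupr1 (0.07 ± 0.41).

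The composite element of Atf4 and C/EBP factors (CARE) was searched as TGATGNAAN on both strands in the same window. A gene was counted where any of its starts had a match. These were 2.7% of all tested genes with a promoter and 3.24% of those that rose. Of genes with a promoter, 5 of 17 of the Atf4 and CHOP list had a match (29.4%), 4 of 15 amino acid synthesis genes (26.7%) and 5 of 12 cytosolic tRNA synthetases (41.7%). The promoters of Chac1 at chr2:119351038-119351241 (plus strand) and Asns at chr6:7693210-7693359 (minus strand), 2 of the genes whose calls depended on the block, are printed with the match in capitals. It begins 194 bases before the start of Chac1, on the opposite strand, and 23 bases before that of Asns.
Chac1: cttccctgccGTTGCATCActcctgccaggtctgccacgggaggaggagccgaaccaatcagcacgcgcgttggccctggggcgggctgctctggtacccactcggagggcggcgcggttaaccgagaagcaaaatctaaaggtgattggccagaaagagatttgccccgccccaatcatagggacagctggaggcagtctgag
Asns: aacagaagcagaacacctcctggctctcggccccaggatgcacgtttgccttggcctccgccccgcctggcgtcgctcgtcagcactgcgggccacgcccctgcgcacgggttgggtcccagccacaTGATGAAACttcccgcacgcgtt

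Amino acid transporters rose in 7 of 14 tested genes, and 1 fell (median 0.578). The largest of these rises was that of Slc3a2, the heavy chain shared by several exchangers, with 2820.0, 2883 and 2958 CPM with TM, against 396, 541 and 593 CPM in controls (2.5 ± 0.15, adjusted p = 2.10e-05). Slc7a1, which carries arginine and lysine, had 120.1, 182 and 156 CPM with TM, against 47.1, 75.2 and 73.4 CPM in controls (1.22 ± 0.20, adjusted p = 0.00497). The glutamine carrier Slc1a5 had 19.7, 24 and 25.7 CPM with TM, against 9.83, 11.5 and 12.4 CPM in controls (1.03 ± 0.15, adjusted p = 0.00265). All 3 had every TM-treated library above every control. Slc7a2 was the member that fell (-0.66 ± 0.15, adjusted p = 0.028). Slc7a2 lost the call without TM library 2 or 3 or control library 1 or 2 (adjusted p up to 0.103).

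Of 18 enzymes that make amino acids or carry one-carbon units 4 rose and none fell, and 13 rose with the replicate block. The serine pathway gene Psat1 had 409, 391 and 373 CPM with TM, against 288, 242 and 239.5 CPM in controls (0.61 ± 0.10, adjusted p = 0.00517). The proline pathway gene Aldh18a1 had 76.7, 101 and 99.9 CPM with TM, against 38.4, 49.1 and 57.2 CPM in controls (0.94 ± 0.16, adjusted p = 0.00611). The count was 2 without control library 2. Cytosolic aminoacyl-tRNA synthetases, which charge tRNAs, counted 3 of 20 higher and none lower, and 15 with the block. Rars had 89.2, 119 and 129 CPM with TM, against 53.7, 74.6 and 77.5 CPM in controls (0.71 ± 0.17, adjusted p = 0.0301), and 0 of the 20 were called without TM library 2 or 3 or control library 1 or 2, and 5 without TM library 1. Of 17 genes of eIF2, its exchange factor eIF2B and related translation factors 0 were called by edgeR and 0 by DESeq2, with 2 higher and 1 lower at an unadjusted p under 0.05 and 5 higher and 1 lower with the block. Rars lost the call without TM library 2 or 3 or control library 1 or 2 (adjusted p up to 0.111).

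Inflammatory genes of the NF-kB pathway rose in the same cultures. Of 45 tested cytokines, chemokines and NF-kB genes 18 rose and none fell, where 5.55% of all genes rose. The median log2 fold change was 0.718, and 28 rose with the block. The chemokine Ccl2, which attracts monocytes, had 148, 187 and 167 CPM in TM-treated Perk KO astrocytes, against 32.6, 59 and 61.7 CPM in control Perk KO astrocytes (1.71 ± 0.22, adjusted p = 0.00141). Ccl3 had 16.6, 5.61 and 14.7 CPM with TM, against 1.52, 0.663 and 0.545 CPM in controls (3.74 ± 0.49, adjusted p = 0.00167), with low levels in every control library and TM library 2 below the other two. The receptor Tlr2 had 92.8, 82.7 and 62.8 CPM with TM, against 23.7, 22.9 and 26.1 CPM in controls (1.71 ± 0.15, adjusted p = 0.000163). Neither Ccl2 nor Tlr2 had any control library near the TM-treated ones.

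The NF-kB inhibitor and feedback target Nfkbia had 168, 179 and 166 CPM with TM, against 91, 91.6 and 92.4 CPM in controls (0.90 ± 0.08, adjusted p = 0.000205), nearly equal within each group. The subunit gene Nfkb2 had 152, 188 and 201 CPM with TM, against 71.9, 84.9 and 91.3 CPM in controls (1.12 ± 0.13, adjusted p = 0.000805). The adhesion molecule Icam1 had 162, 195 and 182 CPM with TM, against 94.6, 101 and 115 CPM in controls (0.80 ± 0.11, adjusted p = 0.00189). Lipocalin Lcn2, an acute-phase gene of reactive astrocytes, had 1379, 943 and 945 CPM with TM, against 506, 231 and 435 CPM in controls (1.48 ± 0.27, adjusted p = 0.00844), and its libraries were also apart. Il6 was low, at 0.318, 1.18 and 1.65 CPM with TM, against 0.76, 0.939 and 1.25 CPM in controls, and Il1a and Il1b were too low to be tested.

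Microglia, another source of these cytokines, were scored by 15 markers, which summed to 18.97 to 55.33 CPM with TM, against 24.58 to 186.3 CPM in controls. Of 13 tested, 1 fell and none rose: Cx3cr1, the fractalkine receptor of microglia, had 0.106, 0 and 0.228 CPM with TM, against 9.4, 0.884 and 1.09 CPM in controls (-5.02 ± 1.2, adjusted p = 0.03). Of all genes 4.6% fell. With the block 6 of these markers fell, beside 2098 of 15164 genes. Without control library 1 Cx3cr1 was below the count minimum and was not tested, and 0 of 11 markers were then called, with a median log2 fold change of -0.18 (-1.06 with all libraries). The part of microglia in the cytokine values was not tested. Cx3cr1 lost the call without TM library 1, 2 or 3 (adjusted p up to 0.116).

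Interferon-stimulated genes fell as a group. Of 35 tested, none rose and 27 fell, where 4.6% of all genes fell, and the median log2 fold change was -1.871. Ifit1, which binds viral RNA, had 43, 109 and 71.9 CPM in TM-treated Perk KO astrocytes, against 254, 678 and 504 CPM in control Perk KO astrocytes (-2.69 ± 0.40, adjusted p = 0.00311). The interferon regulatory factor Irf7 had 8, 20.8 and 16.2 CPM with TM, against 45.9, 120.1 and 118 CPM in controls (-2.67 ± 0.41, adjusted p = 0.00383). In both, library 1 was the lowest of its group, and no TM-treated library reached the lowest control.

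Genes of the factor that carries the interferon signal, ISGF3, were among them: Stat2 had 36.4, 45.5 and 37.2 CPM with TM, against 115, 178 and 152 CPM in controls (-1.90 ± 0.17, adjusted p = 0.000163). Irf9 had 29.3, 44.8 and 36.3 CPM with TM, against 107, 141 and 134 CPM in controls (-1.79 ± 0.17, adjusted p = 0.000228). Isg15, a ubiquitin-like modifier named for its promoter after its values were seen, had 36.1, 89.9 and 70.5 CPM with TM, against 196, 464 and 473 CPM in controls (-2.53 ± 0.39, adjusted p = 0.00373). Members that did not pass the test had log2 fold changes from -1.68 ± 0.52 (Mx2) to 0.13 ± 0.16 (Tap1), and Ifit2 (-0.10 ± 0.11) and B2m (-0.05 ± 0.14) were close to 0. With the block the adjusted p of Mx2 was 1.33e-07. Counts of Ifit3, Ifit3b and the Oas and Gbp families are uncertain, since reads can match more than one copy.

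The interferon-stimulated response element was searched as GAAA, 2 bases of any kind and GAAA on both strands. It was in 3.68% of all tested genes with a promoter, in 3.86% of those that rose and in 10.7% of those that fell (54 of 504). Of the interferon-stimulated genes 15 of 27 with a promoter had it (55.6%). The promoters of Ifit1 at chr19:34640739-34640888 (plus strand) and Isg15 at chr4:156200819-156200968 (minus strand) are printed with the matches in capitals. They begin 104 and 85 bases before the start of Ifit1, on the opposite strand, and 78, 72 and 66 before that of Isg15, where they overlap.
Ifit1: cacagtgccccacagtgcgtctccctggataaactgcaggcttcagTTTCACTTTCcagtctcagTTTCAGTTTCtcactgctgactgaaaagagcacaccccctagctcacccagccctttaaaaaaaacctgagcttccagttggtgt
Isg15: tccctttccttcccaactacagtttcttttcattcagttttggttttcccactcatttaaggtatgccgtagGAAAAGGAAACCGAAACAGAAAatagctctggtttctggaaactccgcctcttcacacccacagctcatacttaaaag

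Of 16 genes of the JAK-STAT3 pathway, through which cytokines of the Il6 family induce Gfap, none rose and 3 fell. Of all genes 4.6% fell. The feedback inhibitor Socs3 had 10.9, 10.8 and 13.2 CPM with TM, against 50.7, 34.6 and 46.4 CPM in controls (-1.92 ± 0.16, adjusted p = 0.000138). The receptor Osmr had 98.5, 105 and 77.2 CPM with TM, against 198, 184 and 172 CPM in controls (-0.98 ± 0.13, adjusted p = 0.00158). Stat3 had 212, 202 and 189.9 CPM with TM, against 399.8, 324 and 302 CPM in controls (-0.77 ± 0.12, adjusted p = 0.0036). Every TM-treated library of the 3 genes lay below every control. With the block 8 fell and 1 rose, and without control library 3 the count was 5 lower.

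Genes by which astrocytes are recognised moved unevenly. Gfap, the intermediate filament of astrocytes, had 66.1, 104 and 50.9 CPM in TM-treated Perk KO astrocytes, against 900.0, 1089 and 632 CPM in control Perk KO astrocytes (-3.57 ± 0.29, adjusted p = 0.000114). The glutamate transporter Slc1a3 (GLAST) had 449, 284 and 288 CPM with TM, against 1178, 844 and 819.6 CPM in controls (-1.48 ± 0.21, adjusted p = 0.00225). Id3, a target of BMP signalling, had 11.5, 14.7 and 21.2 CPM with TM, against 193, 224 and 228 CPM in controls (-3.77 ± 0.20, adjusted p = 1.36e-05). The groups were far apart in Gfap and Id3, and in Slc1a3 library 1 was the highest of both groups.

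Of 32 homeostatic astrocyte genes 9 fell and 3 rose (median -0.24), where 4.6% of all genes fell and 5.55% rose. With the block 17 fell and 8 rose, and without TM library 2, 5 fell. Gfap and Cd44 are counted in this list and in the pan-reactive list as well. The glycolytic Aldoc (-1.08 ± 0.10, adjusted p = 0.000206) and the sodium pump subunit Atp1b2 (-1.08 ± 0.12, adjusted p = 0.000525) fell as well. Glutamine synthetase (Glul), which turns glutamate into glutamine, rose, with 484, 502 and 576 CPM with TM, against 357, 337 and 367 CPM in controls (0.55 ± 0.09, adjusted p = 0.00592), as did the thyroid hormone transporter Slco1c1 (1.05 ± 0.11, adjusted p = 0.000586) and Cd44 (0.59 ± 0.09, adjusted p = 0.00422). Aldh1l1 (-0.11 ± 0.12), Aqp4 (-0.15 ± 0.22), Gja1 (0.08 ± 0.17), Slc1a2 (0.30 ± 0.20) and Sox9 (-0.29 ± 0.12), all astrocyte markers, did not pass the test; with the block the adjusted p was 0.0106 for Slc1a2 and 0.0142 for Sox9. The summed level of the homeostatic genes, Gfap and Cd44 included, was 13880 to 15410 CPM with TM, against 17750 to 20310 CPM in controls.

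Reactive astrocyte lists split. Of 12 pan-reactive genes Lcn2, Cd44 and the metalloproteinase inhibitor Timp1 (1.18 ± 0.30) rose and Gfap and Osmr fell. Of 12 A1-type genes 6 fell and 1 rose (0 rose without TM library 2 or 3 or control library 1 or 2), and of 12 A2-type genes 2 fell and none rose (4 and 3 with the block). The A1-type genes that fell include the interferon-inducible Iigp1 (-2.85 ± 0.26) and Gbp2 (-0.88 ± 0.14), and Stat3 is 1 of the A2-type genes that fell. Timp1 lost the call without TM library 1, 2 or 3 or control library 1 or 2 (adjusted p up to 0.101).

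Growth factors, receptors and their targets in astrocytes counted 4 higher and 9 lower of 45 (10 and 21 with the block). Of all genes 5.55% were higher and 4.6% lower. The inhibitor genes Id2 and Id1 fell with Id3: Id2 had 27.2, 29.8 and 25.4 CPM with TM, against 144, 163 and 120.2 CPM in controls (-2.38 ± 0.13, adjusted p = 1.60e-05). Id1 had 40.7, 50.9 and 64.7 CPM with TM, against 149, 190.4 and 193 CPM in controls (-1.77 ± 0.17, adjusted p = 0.000283). The Notch target Hey1 had 35.7, 38.7 and 34.3 CPM with TM, against 82.8, 87 and 86.8 CPM in controls (-1.24 ± 0.09, adjusted p = 6.43e-05). The growth factor Fgf2 had 18.5, 18.6 and 15.6 CPM with TM, against 51.6, 43.7 and 37.1 CPM in controls (-1.33 ± 0.14, adjusted p = 0.000577). The TM-treated libraries of these 4 genes were all below the controls. The gene of the BMP ligand Bmp6 also fell (-0.90 ± 0.10, adjusted p = 0.00071), while that of Bmp7 rose. The rises were those of Tgfb2 (0.56 ± 0.09), Tgfb3 (0.61 ± 0.09), Egfr (0.67 ± 0.13) and Bmp7 (0.76 ± 0.17), and without TM library 2 the number higher was 2. Egfr lost the call without TM library 2 (adjusted p up to 0.0603). Bmp7 lost the call without TM library 2 or 3 or control library 2 or 3 (adjusted p up to 0.0847).

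Of 55 genes of the extracellular matrix 5 rose and 13 fell, where 5.55% of all genes rose and 4.6% fell. With the block 31 fell. Timp3, an inhibitor of metalloproteinases, had 303, 318 and 274 CPM with TM, against 819, 902 and 650.2 CPM in controls (-1.41 ± 0.13, adjusted p = 0.000246). Mmp3 had 10.8, 19.8 and 25.6 CPM with TM, against 1.41, 1.71 and 4.36 CPM in controls (2.90 ± 0.44, adjusted p = 0.00342). The laminin Lama1 had 7.62, 6.4 and 9.07 CPM with TM, against 1.63, 2.6 and 2.24 CPM in controls (1.83 ± 0.24, adjusted p = 0.00175). Timp3 was lower in all TM-treated libraries, and Mmp3 and Lama1 were higher in all of them. The number higher was 3 without TM library 3 and 2 without control library 2.

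Of 10 tested markers of mural cells and fibroblasts 3 fell, all contractile genes, where 4.6% of all genes fell. Acta2 had 414, 498 and 532 CPM with TM, against 896, 926 and 1324 CPM in controls (-1.13 ± 0.16, adjusted p = 0.00262), and Myl9 (-1.10 ± 0.16, adjusted p = 0.00286) and Tagln (-0.93 ± 0.17, adjusted p = 0.01) fell. The marker sum was 650.4 to 889.9 CPM with TM, against 1307 to 1940 CPM in controls, and Acta2 alone was a large part of it. The collagen Col1a2 (-0.03 ± 0.18) did not pass the test. With the block 6 of the 10 fell, beside 2098 of 15164 genes. The part of such cells in the matrix values was not tested.

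The oligodendrocyte lineage markers summed to 477.8 to 554.2 CPM with TM, against 468.9 to 551.8 CPM in controls, and of 7 tested 1 rose, Olig2 (0.41 ± 0.10), and 2 fell, the myelin gene Cnp (-0.50 ± 0.09) among them; 1 fell without TM library 2 or control library 2. The oligodendrocyte markers Sox10, Mog, Mag, Cldn11, Mobp and Enpp6 were too low to be tested, at most 0.635 CPM in any library. The endothelial sum was 604.9 to 805.7 CPM with TM, against 436.5 to 548.7 CPM in controls. Of 4 tested, 1 rose, the transporter Slco1a4 (0.50 ± 0.13). Pecam1, Cdh5, Tek, Tie1, Erg and Esam were too low to be tested, at most 0.442 CPM. Both sums thus came from the other markers, and which cells expressed these was not tested. Marker counts here stand beside 5.55% of all genes higher and 4.6% lower. The ependymal sum was 591.7 to 761.5 CPM with TM, against 640.6 to 826.5 CPM in controls, and 1 of 6 tested fell, the cilia gene Ccdc153 (-1.15 ± 0.21), against 3 with the block. Of the neuronal markers 7 were tested, with 0 calls by edgeR and by DESeq2, 1 higher at an unadjusted p under 0.05, and 2 higher and 1 lower with the block. Olig2 lost the call without TM library 2 or 3 or control library 1 or 2 (adjusted p up to 0.132). Slco1a4 lost the call without TM library 1 or 2 or control library 1, 2 or 3 (adjusted p up to 0.142).

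Cholesterol synthesis and uptake genes, which the factor Srebf2 drives, fell in 9 of 29 tested and rose in 1. Of all genes 4.6% fell and 5.55% rose. With the block 16 of the 29 fell and 3 rose. The synthase Hmgcs1 had 154, 138 and 130.4 CPM with TM, against 242, 249 and 239.7 CPM in controls (-0.80 ± 0.09, adjusted p = 0.000863), lower in each TM-treated library than in any control. Ebp, a sterol isomerase, was the gene that rose, with 26.4, 24.2 and 30.2 CPM with TM, against 13.6, 14.2 and 17.4 CPM in controls (0.83 ± 0.14, adjusted p = 0.00551).

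The lists that follow hold 13 to 78 tested genes, and their counts stand beside 5.55% of all genes higher and 4.6% lower. Their block counts stand beside 2190 genes higher and 2098 lower of 15164 with the block. Among transcripts reported to be cleaved by Ire1, 2 of 13 rose (Rpn1 and Erp44, both also ER genes) and 2 fell, Scara3 (-1.48 ± 0.14, adjusted p = 0.00027) and Galnt10 (-0.65 ± 0.11, adjusted p = 0.00627), against 4 lower with the block. Of 24 genes of the BCL2 family and death receptors the death agonist Bid rose (0.70 ± 0.12, adjusted p = 0.00681), and Casp12 (-0.84 ± 0.12, adjusted p = 0.00216) and Bcl2l2 (-0.32 ± 0.09, adjusted p = 0.0474) fell, against 5 higher and 5 lower with the block and 3 higher without TM library 1. On leaving out any 1 library, 1 gene of this list fell. Cell cycle genes gave 0 calls of 48 with edgeR and with DESeq2, 0 higher and 3 lower at an unadjusted p under 0.05, and 6 lower with the block. Of 78 cytosolic ribosomal protein genes 1 rose, Rpl10 (1.02 ± 0.12, adjusted p = 0.00072), against 11 with the block and 8 without control library 3, and their counts can be shared with pseudogenes. Mitochondrial chaperones and proteases gave 0 calls of 15 with edgeR and 1 with DESeq2, with 4 higher at an unadjusted p under 0.05 and 6 higher with the block. Bcl2l2 lost the call without TM library 1, 2 or 3 or control library 1, 2 or 3 (adjusted p up to 0.176).

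The TM response of Perk KO astrocytes was then set against that of WT astrocytes, to ask which parts of it differ where Perk is deleted. The difference between both log2 fold changes was tested as an interaction over the 12 astrocyte libraries. It was above 0 for 2992 of 15114 genes (19.8%) and below 0 for 2211 (14.6%). WT astrocytes alone had 25.0% of genes higher and 27.7% lower with TM.

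ER genes rose in both genotypes, and for many the response was lower in Perk KO astrocytes. The counts of differences here stand beside 14.6% of all genes below 0 and 19.8% above 0. In the 6 ER lists together 125 of 192 rose in Perk KO, against 152 of 193 in WT astrocytes, and the difference was below 0 for 88 and above 0 for 14 of 192 (median -0.44). ER-Golgi transport had 33 of 49 below 0 and 3 above (1 above without TM WT library 2 and 5 without TM WT library 1), and the chaperones 14 of 29 below 0 and 5 above. Hsp90b1 changed by 2.47 ± 0.10 in Perk KO and 4.17 ± 0.23 in WT astrocytes, a difference of -1.72 ± 0.22, adjusted p = 0.000133. Pdia4 changed by 1.88 ± 0.12 in Perk KO and 4.25 ± 0.26 in WT astrocytes, a difference of -2.38 ± 0.27, adjusted p = 5.36e-05. Hspa5 changed by 2.72 ± 0.15 in Perk KO and 3.57 ± 0.21 in WT astrocytes, a difference of -0.87 ± 0.25, adjusted p = 0.0176. Spcs2 changed by 1.87 ± 0.10 in Perk KO and 1.70 ± 0.18 in WT astrocytes, a difference of 0.15 ± 0.20, adjusted p = 0.582, which did not pass the test.

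Of the amino acid transporters, Slc3a2 changed by 2.5 ± 0.15 in Perk KO and 1.75 ± 0.17 in WT astrocytes, a difference of 0.73 ± 0.24, adjusted p = 0.0322. This difference lost the call in 8 of 12 fits that leave out 1 library (adjusted p from 0.0548 to 0.073).

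**Figure D4:**
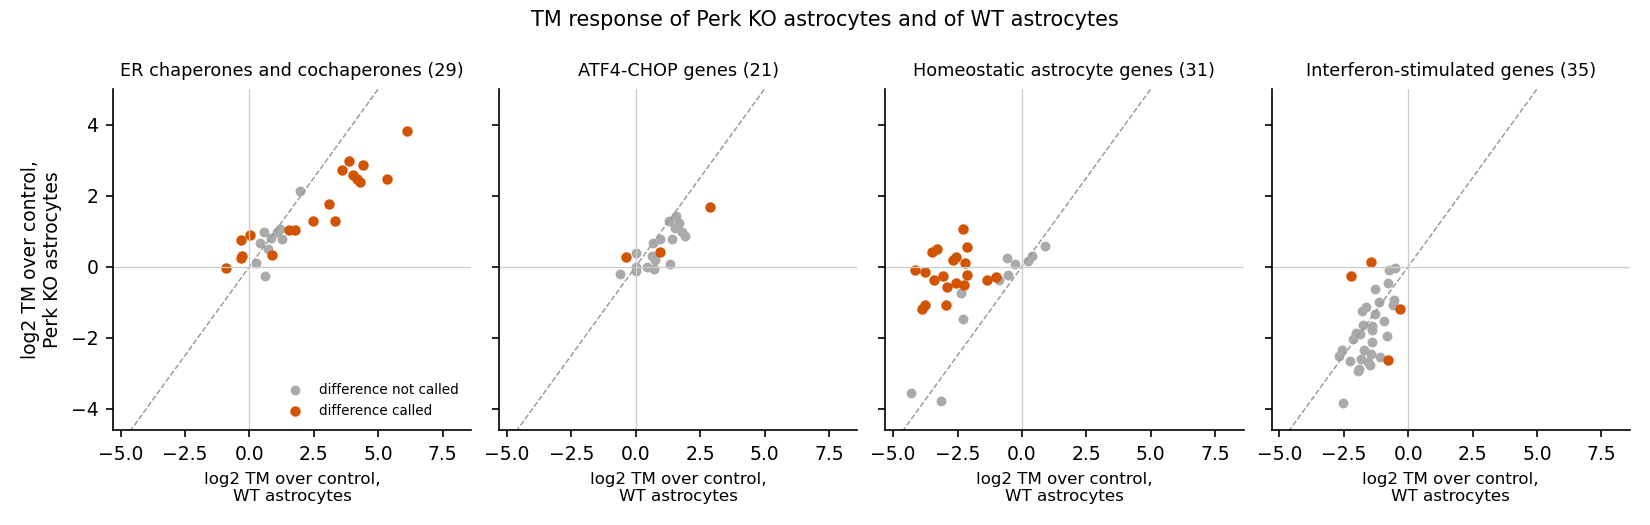
Log2 fold change of TM over control in Perk KO astrocytes (vertical) and in WT astrocytes (horizontal) for the genes of 4 lists tested in both, 1 point per gene, orange where the difference is called, with a dashed line of equal change. The chaperones with the largest rises lie below the line, and most homeostatic astrocyte genes lie above it.

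In the Atf4 and CHOP list the number of called differences depended on the fit. Of 22 genes the difference was above 0 for 1 and below 0 for 2, beside 19.8% and 14.6% of all genes. With the block these were 3 and 10, beside 3989 and 3460 of 15114 genes. The list median was -0.38, and -0.51 to -0.22 on leaving out 1 library. The number below 0 was 6 without control Perk KO library 1, 5 without control WT library 3 and 4 without TM Perk KO library 3. It was 1 without TM WT library 2 or control WT library 2, and 0 without TM Perk KO library 1 or 2, control Perk KO library 2 or 3 or control WT library 1. Ddit3 changed by 1.67 ± 0.28 in Perk KO and 2.88 ± 0.22 in WT astrocytes, a difference of -1.22 ± 0.39, adjusted p = 0.0305. This difference lost the call in 7 of 12 fits that leave out 1 library (adjusted p from 0.0549 to 0.0786). Atf4 changed by 0.97 ± 0.23 in Perk KO and 1.81 ± 0.19 in WT astrocytes, a difference of -0.86 ± 0.34, adjusted p = 0.0647. It passed the test without TM Perk KO library 3, control Perk KO library 1 or control WT library 3 (adjusted p from 0.024 to 0.0446). Chac1 changed by 1.29 ± 0.37 in Perk KO and 1.28 ± 0.23 in WT astrocytes, a difference of 0.00 ± 0.33, adjusted p = 0.999. For Atf4, Trib3 (-0.17 ± 0.43, adjusted p = 0.795), Chac1 and Asns (-0.54 ± 0.41, adjusted p = 0.332) no difference passed the test with all libraries. This does not show that they responded alike. The difference in Trib3 was above 0 without TM Perk KO library 1 or control Perk KO library 3, again with no call. With the block the adjusted p of the difference was 0.000506 for Atf4 and 0.0413 for Asns.

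Lists of protein synthesis and the proteasome are set beside the 14.6% of all genes with a difference below 0, and beside 3460 of 15114 with the block. The difference was below 0 for 11 of 18 amino acid synthesis genes, 12 of 20 tRNA synthetases, 9 of 17 eIF2 and eIF2B genes, 20 of 36 proteasome genes and 26 of 78 ribosomal protein genes (49 with the block), and was above 0 for 1 of these genes, a proteasome gene (0 without TM Perk KO library 1, control Perk KO library 2 or 3, TM WT library 2 or control WT library 1 or 2). The tRNA synthetase count was 7 without TM WT library 3, control Perk KO library 3 or control WT library 1. The eIF2 count was 5 without TM Perk KO library 1, and the ribosomal count was 15 without TM Perk KO library 1 and 17 without control WT library 2.

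Astrocyte and inflammatory genes differed the other way. Of all genes, 19.8% had a difference above 0 and 14.6% below 0, and 27.7% fell in WT astrocytes. Of 31 homeostatic astrocyte genes the difference was above 0 for 20 and below 0 for none (median 1.9), where 26 of 31 fell in WT astrocytes. Glul changed by 0.55 ± 0.09 in Perk KO and -2.15 ± 0.11 in WT astrocytes, a difference of 2.69 ± 0.14, adjusted p = 7.73e-07. Atp1b2 changed by -1.08 ± 0.12 in Perk KO and -3.75 ± 0.17 in WT astrocytes, a difference of 2.65 ± 0.20, adjusted p = 4.12e-06. Gfap changed by -3.57 ± 0.29 in Perk KO and -4.29 ± 0.38 in WT astrocytes, a difference of 0.70 ± 0.48, adjusted p = 0.28. Id3 changed by -3.77 ± 0.20 in Perk KO and -3.14 ± 0.21 in WT astrocytes, a difference of -0.65 ± 0.31, adjusted p = 0.121. Neither difference passed the test with all libraries, and with the block the adjusted p was 0.00342 for Gfap and 0.0367 for Id3. Without TM Perk KO library 3 or TM WT library 1 the adjusted p of Id3 was 0.0294 and 0.0182.

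Of 47 cytokine and NF-kB genes the difference was above 0 for 20 and below 0 for none. The counts in this paragraph stand beside 19.8% of all genes above 0 and 14.6% below 0. Block counts stand beside 3989 and 3460 of 15114 genes, and falls in WT astrocytes beside 27.7%. Tlr2 changed by 1.71 ± 0.15 in Perk KO and -2.39 ± 0.22 in WT astrocytes, a difference of 4.09 ± 0.30, adjusted p = 3.06e-06. Icam1 changed by 0.80 ± 0.11 in Perk KO and -1.45 ± 0.13 in WT astrocytes, a difference of 2.23 ± 0.18, adjusted p = 5.07e-06. Ccl2 changed by 1.71 ± 0.22 in Perk KO and -0.21 ± 0.31 in WT astrocytes, a difference of 1.90 ± 0.44, adjusted p = 0.00579. Tlr2 and Icam1 thus rose in Perk KO astrocytes and fell in WT astrocytes. For the interferon-stimulated genes the difference was above 0 for 2 and below 0 for 2 of 35 (5 and 9 with the block, 8 below without TM WT library 1, and 1 below in 9 of the 12 fits that leave out 1 library), and 27 of 35 fell in Perk KO and 24 of 35 in WT astrocytes. Cell cycle genes had 19 of 47 above 0 and 2 below, with 12 above without TM Perk KO library 1 or 2, control Perk KO library 2, TM WT library 3 or control WT library 1 or 2, and 29 of 47 fell in WT astrocytes.

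Perk KO neurons received the same TM treatment, and their response was compared with that of Perk KO astrocytes as an interaction over 12 libraries. The difference, astrocytes minus neurons, was above 0 for 767 of 16059 genes (4.78%) and below 0 for 1108 (6.9%). Perk KO neurons alone had 13.1% of genes higher and 10.8% lower with TM. Levels were not compared between cell types. The list counts of differences below stand beside 4.78% above 0 and 6.9% below 0. Block counts stand beside 1176 genes above 0 and 1601 below 0 of 16059. The counts depended on single libraries: without TM neuron library 2 they were 1679 and 1704. The number above 0 was 437 to 510 without TM astrocyte library 2, TM neuron library 3 or any 1 control neuron library, and the number below 0 was 522 to 710 without TM astrocyte library 2, TM neuron library 3 or control neuron library 1 or 3.

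ER genes rose in both cell types. In the 6 lists the difference was above 0 for 17 and below 0 for 3 of 193 genes. The number above was 7 to 11 without TM astrocyte library 2 or 3, control astrocyte library 2 or 3, TM neuron library 3 or control neuron library 1, 2 or 3, and 11 were below without TM neuron library 2. The number below was 0 without TM neuron library 3 or control neuron library 1 or 3, and 1 without any 1 astrocyte library. Hsp90b1 changed by 2.47 ± 0.10 in Perk KO astrocytes and 1.58 ± 0.10 in Perk KO neurons, a difference of 0.88 ± 0.14, adjusted p = 0.00285. Dnajb9 changed by 2.97 ± 0.11 in Perk KO astrocytes and 2.15 ± 0.10 in Perk KO neurons, a difference of 0.81 ± 0.14, adjusted p = 0.00407. The difference in Hspa5 did not pass the test, with 2.72 ± 0.15 in Perk KO astrocytes and 2.32 ± 0.13 in Perk KO neurons, a difference of 0.40 ± 0.20, adjusted p = 0.233.

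The sugar transporter gene Slc2a6 changed by 3.21 ± 0.18 in Perk KO astrocytes and 0.64 ± 0.13 in Perk KO neurons, a difference of 2.56 ± 0.22, adjusted p = 8.78e-05, higher in astrocytes.

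**Figure D5:**
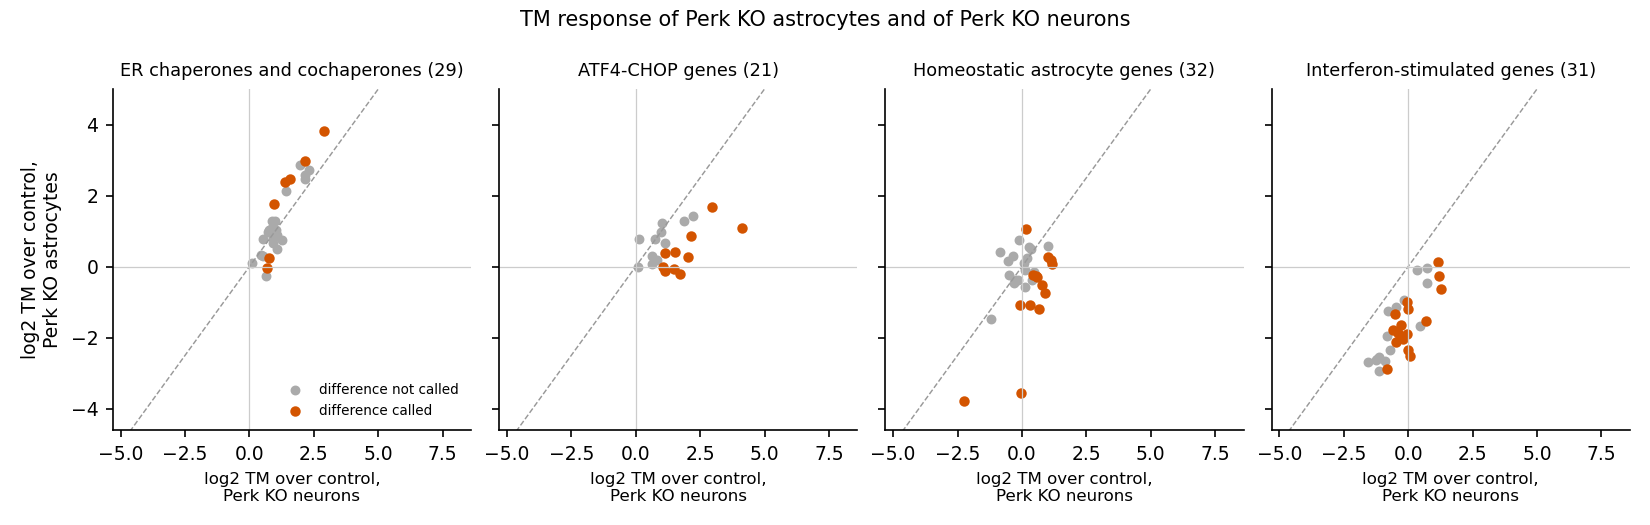
Log2 fold change of TM over control in Perk KO astrocytes (vertical) and in Perk KO neurons (horizontal) for the genes of 4 lists tested in both, 1 point per gene, orange where the difference is called, with a dashed line of equal change. The ATF4-CHOP genes called lie below the line, and so do the interferon-stimulated genes.

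The Atf4 and CHOP list rose less in astrocytes than in neurons for several members. Of 21 genes the difference was below 0 for 10 and above 0 for none (median -0.77), and for 6 on leaving out TM astrocyte library 2, control astrocyte library 2 or 3, TM neuron library 3 or control neuron library 1 or 3. Atf3, a factor of acute stress, changed by 1.09 ± 0.26 in Perk KO astrocytes and 4.13 ± 0.13 in Perk KO neurons, a difference of -3.04 ± 0.33, adjusted p = 0.000408. Ddit3 changed by 1.67 ± 0.28 in Perk KO astrocytes and 2.96 ± 0.17 in Perk KO neurons, a difference of -1.29 ± 0.36, adjusted p = 0.0365. This difference lost the call in 9 of 12 fits that leave out 1 library (adjusted p from 0.0518 to 0.0887). Atf3 and Ddit3 rose in each cell type, by more in neurons, and Atf4 changed by 0.97 ± 0.23 in Perk KO astrocytes and 0.96 ± 0.12 in Perk KO neurons, a difference of 0.00 ± 0.30, adjusted p = 1. Atf3 lost the call without TM library 2 or 3 or control library 1, 2 or 3 (adjusted p up to 0.104).

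Interferon-stimulated genes had a difference below 0 in 17 of 34 genes and above 0 in none (median -1.41), beside 6.9% of all genes below 0. With the block 27 were below 0, beside 1601 of 16059 genes. Replicate numbers were not shown to pair the neuron libraries, so that block is a description there. Stat2 changed by -1.90 ± 0.17 in Perk KO astrocytes and -0.05 ± 0.28 in Perk KO neurons, a difference of -1.86 ± 0.35, adjusted p = 0.00608. In neurons alone 3 of 31 such genes rose and 7 fell.

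Gfap changed by -3.57 ± 0.29 in Perk KO astrocytes and -0.03 ± 0.22 in Perk KO neurons, a difference of -3.55 ± 0.40, adjusted p = 0.000456. Socs3 changed by -1.92 ± 0.16 in Perk KO astrocytes and 0.09 ± 0.29 in Perk KO neurons, a difference of -2.01 ± 0.35, adjusted p = 0.00439. Stat3 changed by -0.77 ± 0.12 in Perk KO astrocytes and 0.48 ± 0.12 in Perk KO neurons, a difference of -1.26 ± 0.18, adjusted p = 0.00131; of 16 JAK-STAT3 genes 7 were below 0 and 1 above (0 above without TM astrocyte library 2 or 3 or control neuron library 3). Of 34 homeostatic astrocyte genes 13 were below 0 and 1 above (4 above and 15 below without TM neuron library 2). Gfap had 1388, 791 and 812 CPM in TM-treated Perk KO neurons, against 926, 1136 and 982 CPM in control Perk KO neurons, and which cells it came from was not tested. Id3 changed by -3.77 ± 0.20 in Perk KO astrocytes and -2.25 ± 0.23 in Perk KO neurons, a difference of -1.53 ± 0.32, adjusted p = 0.0106, a fall in both. Of the inflammatory genes, Tlr2 rose less in astrocytes, with 1.71 ± 0.15 in Perk KO astrocytes and 3.68 ± 0.30 in Perk KO neurons, a difference of -1.97 ± 0.34, adjusted p = 0.00432, and Ccl3 rose more, with 3.74 ± 0.49 in Perk KO astrocytes and 0.77 ± 0.28 in Perk KO neurons, a difference of 2.97 ± 0.61, adjusted p = 0.00992.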

How the data were processed

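RNA-seq counts of 6 Perk KO astrocyte libraries were analysed, with 6 of WT astrocytes and 6 of Perk KO neurons for comparison. Per the submitters' processing notes, the tools were fastp, HISAT2, featureCounts and DESeq2 and the build GRCm38.p6. Versions, annotation release and strand setting are not given in the sources used here, so reads of overlapping or antisense genes may be mixed. The authors deposited raw read counts per gene with their log2 fold change and p-value columns; 5 of 8 tables were used, holding 31626 genes. No entry lacked a gene, and 0 counts differed between tables.

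Counts were tested with edgeR 4.0.16 (R 4.3.3): TMM, a mean of at least 10 counts, quasi-likelihood F test, Benjamini-Hochberg adjusted p under 0.05. SE is the log2 fold change divided by the root of F. Alternatives were DESeq2 1.42.0, its size factors in edgeR, no filter, the replicate number as a block, the block with a GC correction (20 bins), and leaving out each library. Only the block fits used the replicate number, and no library was left out with the block. The scripts were tested on simulated data.

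Same-numbered astrocyte libraries, numbered in the titles, had correlated deviations from their group means (0.22 to 0.54 over all pairs, and 0.47, 0.31 and 0.45 for TM and control Perk KO), so the numbers pair them. In Perk KO neurons the values were 0.2, -0.07 and 0.02. Replicates differed by more than sampling noise. Members of the 44 gene lists, and the lists, were chosen with earlier results of these data known. Named genes are 12 fixed ones, the 12 largest rises and falls, the 8 largest interactions each way (mean of at least 100 counts) and up to 8 members of a list by p, plus members against a list's direction. Other genes were named after their values were seen: Ern1, Eif2ak1, Eif2ak4, Fkbp9, Cdnf, Dnajc10, Sdf2, Dpagt1, Ppp1r15b, Nupr1, Il6, Isg15, Mx2, Tap1, Ifit2, B2m, Col1a2 and Hsp90aa1. Some genes that the rule names are not reported here. Promoters are from RefSeq. The authors' deposited table called 997 genes higher and 889 lower, and 1528 of these were called here too, 99.3% of the calls here and 81.0% of theirs.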

Additional observations from a re-analysis of the deposited data

Results flagged for a closer look

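The values in this section are tested differences between 2 responses to TM. For each interaction they are among the largest of the protein-coding genes called by edgeR's quasi-likelihood test that averaged 100 counts or more. Groups of 3 libraries are too small for a test of outlying samples.

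Between Perk KO and WT astrocytes, the response to TM on the log2 scale was higher in Perk KO for Fgl2 (5.82), 4932443I19Rik (5.53), Sult1a1 (5.18), Igfbp5 (5.1), Crispld2 (4.82), Cnmd (4.77), Vwa1 (4.74) and Sez6 (4.52). Fgl2, a secreted fibrinogen-like protein, had 54.5, 27.2 and 36 CPM with TM and 31, 16.9 and 19.4 CPM in controls of Perk KO astrocytes, against 1.04, 0.74 and 0.324 CPM with TM and 32, 18.3 and 17.4 CPM in controls of WT astrocytes. It did not pass the test within Perk KO (0.81 ± 0.28, adjusted p = 0.116; with the replicate block, adjusted p = 6.21e-06) and fell in WT (-5.03 ± 0.43, adjusted p = 8.64e-05). Igfbp5, which binds insulin-like growth factors, changed by -0.25 ± 0.14 in Perk KO and -5.36 ± 0.20 in WT astrocytes, and the change in Perk KO had an adjusted p of 0.0414 with the block. The response was lower in Perk KO for Derl3 (-3.82), Acox2 (-2.96), Zcchc12 (-2.88), Creld2 (-2.87), Avil (-2.54), Pdia4 (-2.38), Sdf2l1 (-2.32) and Angptl6 (-2.29). In Derl3, Creld2, Pdia4 and Sdf2l1, ER genes that rose in both genotypes, the difference lay in the size of the rise.

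Between Perk KO astrocytes and Perk KO neurons, the response was higher in astrocytes for Sla (3.81), Sphkap (3.8) and Lzts1 (3.51). The fitted difference was also above 0 for Slitrk3 (4.68), Ramp3 (3.59), Clvs1 (3.33), Lrrc7 (3.29) and Gpr158 (3.16), but these genes were below the count minimum in Perk KO astrocytes and expressed in neurons, so that no response of astrocytes was measured for them. Slitrk3 was at 0 in all control astrocyte libraries, so its fitted value depends on the prior count and is no bound. The response was lower in astrocytes for Gfap (-3.55), Steap4 (-3.19), Disp3 (-3.1), Elobl (-3.08), Atf3 (-3.04), Gbp2 (-2.99) and Padi2 (-2.74). Gfap fell in astrocytes and did not pass the test in neurons (-0.03 ± 0.22, adjusted p = 0.933), and Steap4, a metalloreductase of reactive astrocytes, rose in neurons (3.01 ± 0.26, adjusted p = 0.000428) with no call in astrocytes (-0.17 ± 0.41, adjusted p = 0.862).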

How the results depend on the processing

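No value of a named gene that was called under either setting changed sign under any alternative run. The number of genes raised and lowered by TM in Perk KO astrocytes (841 and 698) was 2190 and 2098 with the replicate block and 2214 and 2160 with the block and a GC correction, and ranged from 459 to 728 and from 348 to 619 on leaving out a library, lowest without TM library 2. It was 1032 and 929 with DESeq2. For the difference between the genotypes, 3460 genes were below 0 with the block and 3647 with the block and GC correction (2211 without), 3989 and 3838 were above 0, and leaving out a library gave 2515 to 3265 above and 1615 to 2568 below. For the difference between cell types, more genes were below 0 (1108) than above (767), but not with DESeq2 (1345 below and 1359 above) or with no filter (946 and 959). Above 0 were 1176 genes with the block and 1545 with the block and GC correction, and leaving out a library gave 437 to 1679 above and 522 to 1704 below. There, 40.9% of the calls were above 0, against 49.4% with DESeq2's size factors and 50.3% with no filter. In Perk KO neurons replicate numbers were not shown to pair libraries, so the block there is a description. Eif2ak3 was lower in Perk KO under each alternative. The cause of these shifts was not tested.

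Of 217 named genes called in the TM response, 57 lost the call on leaving out at least 1 library, with adjusted p up to 0.201, and 0 lost it with the block or with DESeq2. The fits that leave out a library were without the block. Beyond the genes and counts given beside the results, the block changed no call among the TM responses and differences given for single genes. With 17161558 to 18241265 counts per library, genes under a mean of 10 counts were not tested, and with 3 libraries a group small changes cannot be resolved.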

Other observations

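The counts of other pathways in Perk KO astrocytes with TM stand beside 5.55% of all genes higher and 4.6% lower. Block counts stand beside 2190 genes higher and 2098 lower of 15164 with the block. In lists of 13 to 39 genes, with calls that moved with single libraries, no count is read as standing apart from these shares. Of 34 genes listed as cytosolic heat shock chaperones 3 rose and 1 fell. Hspa13, counted there although it is an Hsp70 relative of microsomes, had 203, 216 and 184 CPM with TM, against 83.1, 80.2 and 79.6 CPM in controls (1.31 ± 0.09, adjusted p = 5.59e-05). The small heat shock protein Hspb8 had 259, 230.0 and 231 CPM with TM, against 558, 524 and 516 CPM in controls (-1.15 ± 0.09, adjusted p = 9.66e-05). The libraries of both were apart, and Hspa1b rose (1.08 ± 0.14, adjusted p = 0.00187). Hsp90aa1 (0.09 ± 0.11) did not pass the test. Of 39 autophagy and lysosome genes 2 rose and 2 fell (8 and 6 with the block, 4 higher without control library 3, 1 higher without any other single library, and 1 lower without TM library 1 or 2 or control library 1), among them the initiation factor Atg13, with 74.7, 81.8 and 95.8 CPM with TM, against 48.7, 43.7 and 45.8 CPM in controls (0.86 ± 0.11, adjusted p = 0.00126), and the lysosomal membrane protein Lamp1, with 671, 632 and 727 CPM with TM, against 1203, 1196 and 1169 CPM in controls (-0.82 ± 0.09, adjusted p = 0.000538). Every library of Lamp1 was lower with TM than any control.

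In glucose metabolism 1 of 28 genes rose and 3 fell (7 and 8 with the block, and 2 higher without control library 3). The glucose transporter Slc2a1 rose (0.64 ± 0.13, adjusted p = 0.0128). Pfkfb3, which activates glycolysis, had 62.1, 50.4 and 51 CPM with TM, against 135, 99.4 and 95.1 CPM in controls (-1.01 ± 0.15, adjusted p = 0.00311). Of 35 NRF2 and oxidative stress targets 3 rose and 2 fell (11 and 4 with the block), and none was called lower on leaving out any 1 library. Srxn1 (0.65 ± 0.09, adjusted p = 0.00259) and the transporter Abcc1 (0.78 ± 0.08, adjusted p = 0.000525) rose. Of 13 genes encoded in mitochondrial DNA 2 rose, mt-Nd4 (0.59 ± 0.14, adjusted p = 0.033) and mt-Nd2 (0.54 ± 0.13, adjusted p = 0.034), against 7 with the block, 6 without TM library 3, 4 without control library 3 and 0 without TM library 1 or 2 or control library 1 or 2. DESeq2 called 7. Among 21 p53 targets and cell cycle inhibitors Sesn1 rose (0.57 ± 0.09, adjusted p = 0.00461), and Cdkn1c (-0.95 ± 0.18, adjusted p = 0.0104) and Cdkn2c (-0.47 ± 0.12, adjusted p = 0.033) fell, against 8 higher and 4 lower with the block and 2 higher without TM library 1. The immediate early gene Fos had 10.2, 9.71 and 13.1 CPM with TM, against 27.4, 24.4 and 24.6 CPM in controls (-1.22 ± 0.14, adjusted p = 0.00087), lower in each TM-treated library. Of 27 immediate early genes 2 rose and 1 fell (7 and 5 with the block), with none higher without TM library 2 and 1 without control library 2. Of 27 genes of fatty acid synthesis and lipid droplets 3 rose and 2 fell (7 and 6 with the block), with 1 higher without TM library 2 or control library 2 0 lower without TM library 1 or 2 or any 1 control library, and 1 lower without TM library 3. Of 15 noncoding Snhg and Gas5 genes 1 rose, against 6 with the block and 0 on leaving out any 1 library or with no filter on low counts. Slc2a1 lost the call without control library 2 (adjusted p up to 0.0646). mt-Nd4 and mt-Nd2 lost the call without TM library 1 or 2 or control library 1 or 2 (adjusted p up to 0.129). Cdkn2c lost the call without TM library 1, 2 or 3 or control library 1 or 2 (adjusted p up to 0.134).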
